A study of Mus musculus with 14 samples.

Results

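The 40 genes described here build the mitotic spindle, attach chromosomes to it and cut the cell apart at the end of division. They were taken by name, as cyclins, mitotic kinases, kinetochore and checkpoint proteins, spindle motors, midzone and cytokinesis proteins, and chromosome proteins. A gene was read through a probe set annotated with that symbol alone, and 37 of the 40 had one, each exactly 1, among 22180 genes measured this way. Ccnb1 had no such probe set, the probe set of Ncapg carries several symbols, and Sgol1 is listed under its present symbol Sgo1. Sgo1 is left out of all counts, and its log2 intensity was low, at 2.02 ± 0.83 (SD, n = 2) in WT, 1.83 ± 0.54 in HET and 1.78 ± 0.12 in KO livers on chow, and 1.69 ± 0.10 in HET and 1.85 ± 0.03 in KO livers on HFD (SD, n = 3 each).

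The study measured whole-liver RNA of 14 male C57BL/6 mice, each on its own array. Every mouse carried the Alb-Cre transgene, in which the albumin promoter drives Cre recombinase in hepatocytes. Whether the other cells of the liver kept their Lmna was not measured. Mice with the genotype LMNA +/+ are called WT, LMNA flx/+ mice HET and LMNA flx/flx mice KO, flx marking a copy that Cre can remove. Lmna encodes lamin A and lamin C of the nuclear lamina. On normal chow there were 2 WT livers (24.6 and 27 weeks of age), 3 HET livers (24 to 26.4 weeks) and 3 KO livers (38.9 weeks). On a high fat regimen, called HFD, there were 3 HET livers (30 to 30.4 weeks) and 3 KO livers (35.3 weeks). HFD was the Surwit Diet for 14 weeks with sugar in the water at 42 g/L, of which 55% was fructose and 45% was sucrose. The mean age gap between KO and HET mice was 13.3 weeks on chow and 5.17 weeks on HFD, with the KO mice older, and all KO mice of a diet had 1 age, so genotype and age cannot be told apart. Whether mice shared a litter or a cage is not given in the labels.

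Values are log2 intensities, changes are differences between group means on that scale, and ± after a change is its standard error from limma. A gene was called where the p-value of limma's moderated test, adjusted by Benjamini and Hochberg over all 22180 genes, was under 0.05. Lmna itself read 4.50 and 4.43 in WT, 4.29, 4.40 and 4.25 in HET and 4.09, 3.78 and 3.67 in KO livers on chow, and 4.07, 4.07 and 4.30 in HET and 3.90, 4.07 and 3.99 in KO livers on HFD. The KO livers were lowest on chow, while on HFD the KO and HET livers overlapped, so it bears out the labels on chow alone, and where the probe set lies relative to the deleted part was not examined. Its change passed against WT on chow (-0.62 ± 0.14, adjusted p = 0.0393) and not against HET on chow (-0.47 ± 0.12, adjusted p = 0.0823) or on HFD (-0.16 ± 0.12, adjusted p = 0.517). Over all genes, the correlation of arrays was 0.989 to 0.994 within a group and 0.980 to 0.994 between groups.

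As background, a cell enters mitosis when cyclin-dependent kinase CDK1, bound to a cyclin, becomes active, and leaves it when the anaphase-promoting complex with its activator CDC20 marks cyclin B and securin for destruction. In between, Aurora and Polo-like kinases build the spindle, the NDC80 complex ties kinetochores to microtubules, and the checkpoint holds back CDC20 until every chromosome is attached. The spindle midzone then places the RhoA activator ECT2, which drives the contractile ring of cytokinesis. Adult hepatocytes are mostly quiescent and often polyploid, because some of their divisions skip cytokinesis, and mitotic mRNAs are scarce in a resting liver. Genes of this kind are known as shared targets of the DREAM repressor complex and of the MYB-MuvB and FOXM1 activators, which act through a promoter element called the cell cycle genes homology region, often next to CCAAT boxes bound by NF-Y.

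On chow, all 37 measured members had a higher mean in KO than in HET livers, by 0.22 (Cdca8) to 2.04 (Ndc80), with a median change of 0.92 against -0.01 over all genes. limma called 16 of the 37 higher (43.2%) and none lower, where 1.44% of all genes tested were called higher and 0.478% lower. A further count needs no model. In 25 members each of the 3 KO livers lay above each of the 3 HET livers, a pattern found in 9.59% of all genes. The 16 were Ccna2, Ccnb2, Cdk1, Cdc20, Plk1, Aurka, Ndc80, Nuf2, Tpx2, Nusap1, Hmmr, Kif2c, Prc1, Kif20a, Anln and Mki67. The number of calls changed with single livers. It was 26 without the KO array named H1, and 6 without HET array F2, 7 without KO array I1, 8 without KO array H2 and 10 without HET array F1. Of the 16 calls, 4 were kept in all 14 fits that left out 1 array (Cdc20, Ndc80, Nusap1 and Prc1), while Ccnb2 and Mki67 kept theirs in 8 of 14, Kif2c in 6, Nuf2 in 4 and Anln in 2. Fitting the 2 groups alone left 6 calls (Cdk1, Cdc20, Nusap1, Prc1, Tpx2 and Ndc80), and a linear term for age left 0 and a median change of 0.37.

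Against the WT livers on chow, which share the KO arrays with the comparison above, the picture was close in size. All 37 means were higher in KO, the median change was 1.09, and 16 members were called higher and none lower, beside 1.24% and 0.41% of all genes. Kif11 (1.28 ± 0.29, adjusted p = 0.048) and Ect2 (1.45 ± 0.32, adjusted p = 0.0391) were called against WT and not against HET, whereas Ccna2 (1.06 ± 0.32, adjusted p = 0.163) and Kif2c (0.77 ± 0.34, adjusted p = 0.403) were called against HET and not against WT. Such splits rest on the threshold, and the differences behind them were not tested. Against WT, Kif11 kept its call in 2 and Ect2 in 6 of the 14 fits that left out 1 array, and without KO array H1 Kif11 was called against HET too (adjusted p = 0.0114). Ndc80, Nusap1 and Prc1 were the 3 of 16 calls against WT kept in all 14. The count was 25 without KO array H1, 8 without WT array G1, 3 without WT array N1, 4 with the 2 groups fitted alone and 0 with an age term. No member was called between HET and WT livers on chow. limma called 0 of 37 (0% of all genes in either direction), none had an unadjusted p under 0.05, against 954 of 22180 genes, and changes ran from -0.62 (Kif2c) to 0.66 (Ect2) with a median of 0.03.

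On HFD the rise was called in more members. All 37 means were again higher in KO than in HET livers, from 0.10 (Ncapd2) to 3.24 (Ect2), with a median of 1.16 against -0.02 over all genes. limma called 24 of 37 higher (64.9%) and none lower, beside 5.5% and 2.06% of all genes. In 35 members the 3 KO livers lay above the 3 HET livers without overlap, against 13.3% of all genes, and the exceptions were Kif23 and Ncapd2. The HFD comparison shares no array with the chow comparison, although both use the same estimate of spread. All 16 members called on chow were among the 24 called on HFD, which added Aurkb, Cenpe, Cenpf, Ect2, Mad2l1, Tacc3, Top2a and Ube2c. Of the 24 calls, 18 were kept in all 14 fits that left out 1 array, and the others were Cenpe (kept in 13), Tacc3 (12), Cenpf (11), Ccna2 (10) and Kif2c and Top2a (8 each). An age term left 0 calls on HFD too, although its slope came from age differences among WT and HET livers alone, since KO livers of a diet had 1 age.

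Averaged over the diets, KO minus HET was positive in all 37 members, with a median of 1.12, and limma called 32 higher (86.5%) and none lower, beside 6.52% and 2.9% of all genes. The 8 members called here and in neither diet alone were Birc5, Bub1, Cdca3, Kif11, Kif4, Melk, Racgap1 and Ttk, and the 5 called in none of these comparisons were Bub1b, Cdca8, Kif23, Ncapd2 and Pbk. Of the 32 calls, 27 were kept in all 14 fits that left out 1 array, and the others were Tacc3 (kept in 13), Kif4 (12), Birc5 and Melk (5 each) and Bub1 (3). Conversely, 3 of the 5 uncalled members passed over both diets in other fits. Without KO array H1 these were Pbk (adjusted p = 0.00379), Bub1b (0.0389) and Kif23 (0.0404). Pbk also passed without KO array C4 (0.0368), and Bub1b without HET array P1 (0.00963) and with array weights (0.0351). On HFD, Pbk passed without H1 (0.0203). In 22 members the 6 KO livers all lay above the 8 WT and HET livers, against 2.77% of all genes. An age term left 0 calls. In whole-liver RNA, fewer cells of a type and less RNA per cell cannot be told apart, so these values do not say whether more cells divided or dividing cells held more mRNA.

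**Figure D1:**
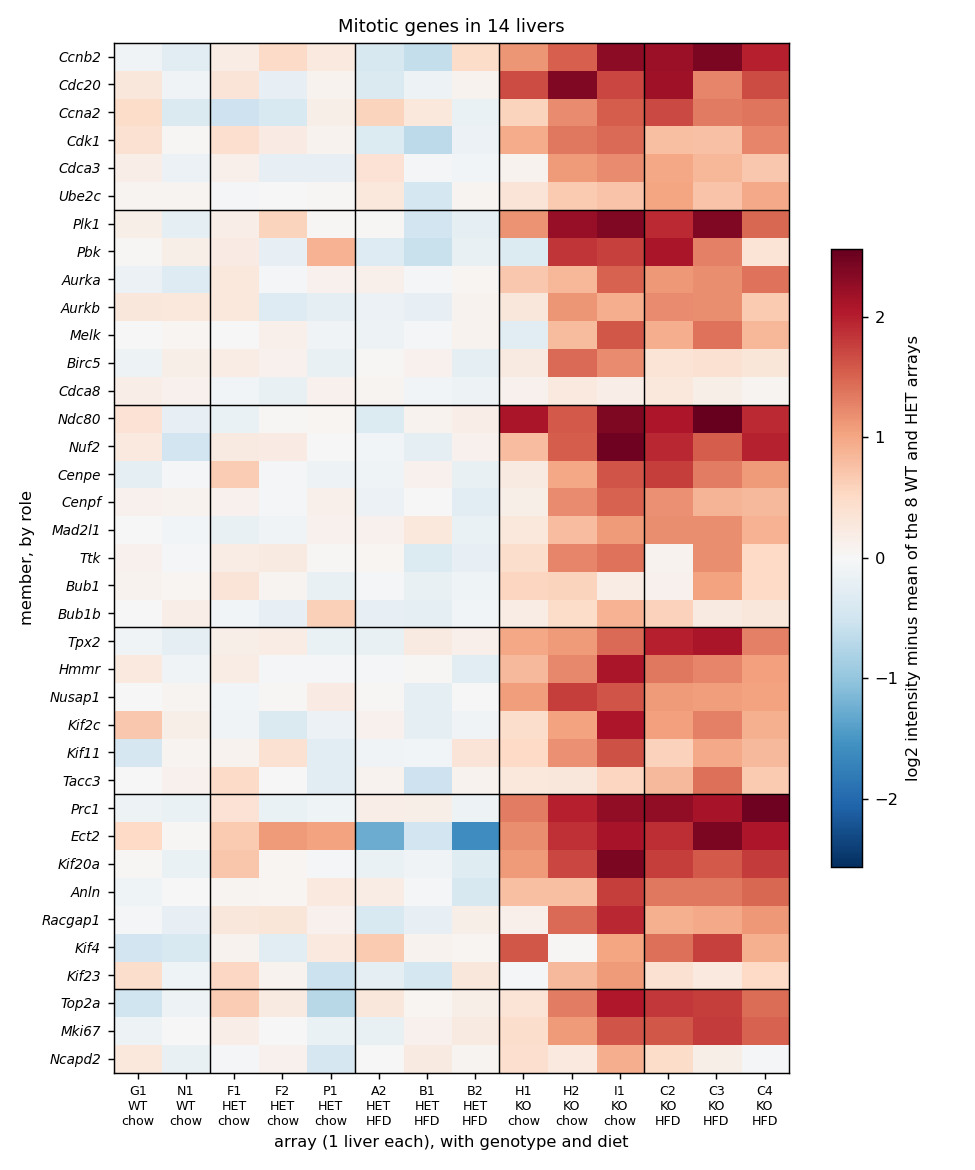
Heat map of the 37 measured members (rows, by role) in 14 livers (columns, with array name, genotype and diet), as log2 intensity minus the mean of the 8 WT and HET arrays. The 6 KO columns at the right are mostly red, palest in H1, and Ect2 is the row in which HET livers on HFD are bluest.

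Scaling moved the level of all genes but not the direction of most members. Centring each array on its median over the tested genes shifted KO minus HET by -0.12 on chow, -0.22 on HFD and -0.17 over both diets, and KO minus WT by -0.13. The share of called genes that were higher then fell from 75.1% to 48.7% on chow, from 75.2% to 59.2% against WT, from 72.8% to 20.5% on HFD and from 69.2% to 17.8% over both diets. Most of that came from lower calls. On HFD they went from 456 to 3543 genes while higher calls went from 1221 to 915, and over both diets from 644 to 4906 while higher calls went from 1447 to 1059. On chow, lower calls went from 106 to 261 and higher calls from 320 to 248. The shares of all genes called lower that stand beside the members' counts hold for the deposited scale. HFD minus chow in KO livers went from 65.7% to 44.2%. Members called under centring numbered 15, 12, 25 and 31 in the same order. All 37 members stayed higher in KO than in HET livers on chow and over both diets, whereas Cdca8 turned lower against WT, and Cdca8 and Ncapd2 turned lower on HFD.

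The promoters of called members, and of a member that was not called, are shown because genes of this kind are known to share the element described above. The members were taken by name, yet as known targets of this kind they are not a choice independent of that element. Sequences are from RefSeq (GRCm38.p6) and run 5′ to 3′ along each gene, from 250 bases before the annotated start to 50 after it. Capitals mark TTTGAA, the cell cycle genes homology region (CHR), and CCAAT, the NF-Y box, which reads ATTGG on the other strand. Prc1 is on the plus strand at chr7:80294201-80294500, Plk1 on the plus strand at chr7:122159185-122159484, Cdc20 on the minus strand at chr4:118437294-118437593, Nusap1 on the plus strand at chr2:119618048-119618347 and Cdca8 on the minus strand at chr4:124936868-124937167. Prc1, Plk1 and Cdc20 are strongly raised members, Nusap1 is a raised member in which neither motif was found, and Cdca8 is a member that was not called.
Prc1: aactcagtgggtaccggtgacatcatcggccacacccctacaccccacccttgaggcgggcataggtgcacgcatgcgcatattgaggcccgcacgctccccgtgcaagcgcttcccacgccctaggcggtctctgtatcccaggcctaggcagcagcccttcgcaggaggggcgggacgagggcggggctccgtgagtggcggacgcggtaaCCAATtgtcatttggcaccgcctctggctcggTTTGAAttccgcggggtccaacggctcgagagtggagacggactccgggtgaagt
Plk1: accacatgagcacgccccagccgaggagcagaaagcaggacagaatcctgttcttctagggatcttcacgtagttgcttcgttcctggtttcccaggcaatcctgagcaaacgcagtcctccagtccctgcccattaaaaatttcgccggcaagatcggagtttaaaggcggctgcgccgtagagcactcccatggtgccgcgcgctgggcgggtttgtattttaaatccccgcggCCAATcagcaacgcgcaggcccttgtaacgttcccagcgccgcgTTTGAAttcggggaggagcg
Cdc20: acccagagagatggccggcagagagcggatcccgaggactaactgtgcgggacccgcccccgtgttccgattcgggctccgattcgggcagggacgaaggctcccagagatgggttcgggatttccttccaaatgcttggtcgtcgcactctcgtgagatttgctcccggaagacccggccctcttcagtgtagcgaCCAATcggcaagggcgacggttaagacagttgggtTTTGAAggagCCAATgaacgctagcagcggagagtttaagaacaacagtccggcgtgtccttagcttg
Nusap1: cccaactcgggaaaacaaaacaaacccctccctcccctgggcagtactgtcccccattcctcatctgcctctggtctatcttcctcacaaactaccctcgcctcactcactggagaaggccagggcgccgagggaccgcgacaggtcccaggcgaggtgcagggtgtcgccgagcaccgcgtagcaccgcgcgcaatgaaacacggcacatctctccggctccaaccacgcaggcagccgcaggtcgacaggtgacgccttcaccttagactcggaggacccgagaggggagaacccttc
Cdca8: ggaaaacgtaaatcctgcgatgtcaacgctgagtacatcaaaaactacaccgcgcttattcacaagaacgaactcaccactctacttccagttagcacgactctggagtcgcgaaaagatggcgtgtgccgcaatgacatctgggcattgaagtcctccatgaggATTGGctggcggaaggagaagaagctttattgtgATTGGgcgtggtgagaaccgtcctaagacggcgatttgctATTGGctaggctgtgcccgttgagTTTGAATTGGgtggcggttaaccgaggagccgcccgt
In Prc1 the CCAAT box lies ahead of the CHR, at -37 and -5 bases from the start, and in Plk1 the same order stands at -14 and 30. In Cdc20 a CHR at -18 lies between CCAAT boxes at -53 and -8. In Cdca8 a CHR at 13 runs into a reversed CCAAT box, so both appear as 1 run of capitals.

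Of the 37 measured members, 32 had a promoter in the RefSeq table (Ccna2, Aurkb, Kif20a, Tpx2 and Pbk did not). TTTGAA on either strand was in 24 of 32 (75.0%), against 18.1% of 27025 promoters of the same length, 1 per gene. CCAAT on either strand was in 23 of 32 (71.9%, against 37.9%), and 21 promoters held both (65.6%, against 7.12%). The CHR variant TTCGAA was in Top2a, Bub1 and Bub1b (9.38%, against 1.57%). The E2F motif TTTCGCGC was in Cdk1 alone (0.318% of all promoters) and TTTGGCGC in Ncapd2 alone (0.537%), on either strand. Among members called over both diets 20 of 28 with a promoter held a CHR, and all 4 uncalled members with a promoter did too, so a CHR was present on both sides of the threshold. Nuf2, Nusap1, Mad2l1, Melk, Tacc3 and Birc5 had no CHR, variant or CCAAT match in this window. A match is a string of letters and not a binding site, and the shares describe genes of a kind already known for the CHR.

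**Figure D2:**
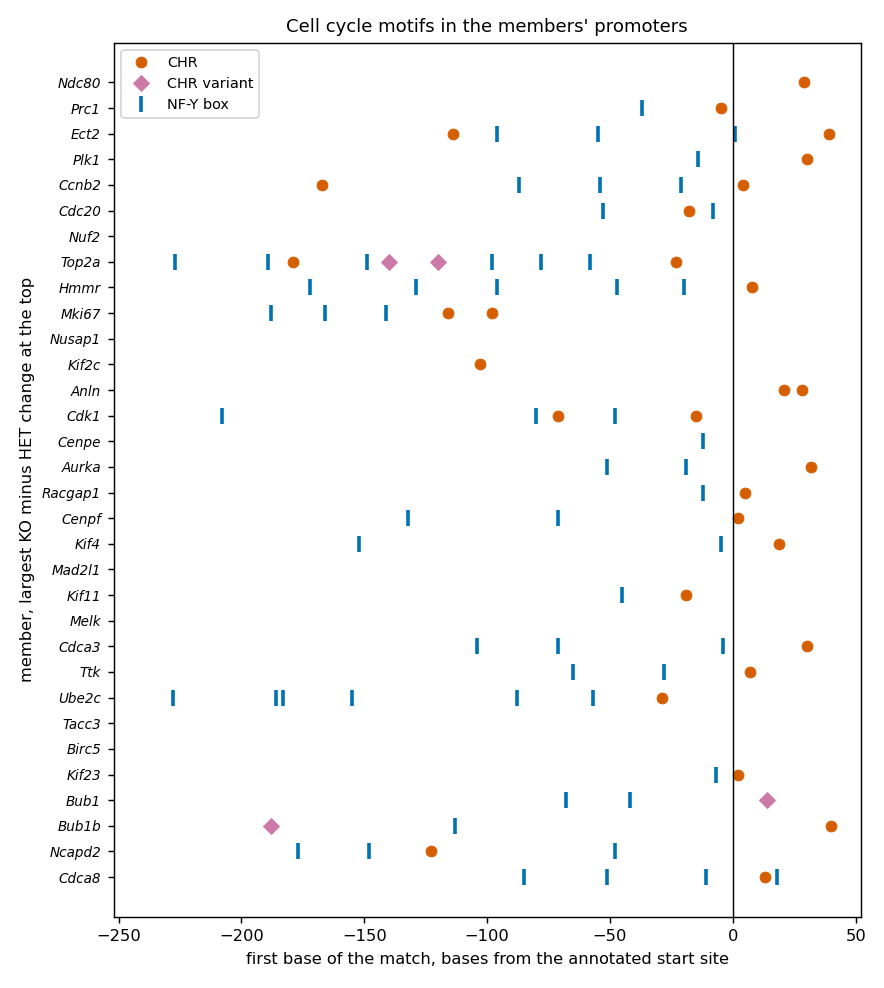
Position of TTTGAA (CHR, circles), TTCGAA (CHR variant, diamonds) and CCAAT (NF-Y box, bars), on either strand, in bases from the annotated start, for the 32 members with a promoter, ordered by KO minus HET over both diets. Of 30 CHR matches, 24 lie from -100 on, in a window from 250 bases before the start to 50 after it. CCAAT boxes lie mostly ahead of the start. Positions in the promoters of other genes were not counted.

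For single members, values are given in the order of the heat map within each group, and a change is KO minus HET unless stated otherwise. Among the regulators of entry and exit, all 6 measured members were called higher over both diets (Ccnb2, Cdc20, Ccna2, Cdk1, Cdca3 and Ube2c). Ccnb2, a B-type cyclin that activates CDK1 (Entrez 12442), read 3.16 and 2.95 in WT, 3.45, 3.73 and 3.49 in HET and 4.39, 4.78 and 5.54 in KO livers on chow, and 2.84, 2.65 and 3.72 in HET and 5.44, 5.67 and 5.24 in KO livers on HFD. Every KO liver lay above every WT and HET liver, and the change was 1.34 ± 0.29 on chow (adjusted p = 0.0334) and 2.38 ± 0.29 on HFD (adjusted p = 0.000376). Cdc20, the activator of the anaphase-promoting complex (Entrez 107995), read 3.17 and 2.79 in WT, 3.22, 2.68 and 2.98 in HET and 4.55, 5.25 and 4.60 in KO livers on chow, and 2.50, 2.75 and 2.97 in HET and 5.06, 4.13 and 4.57 in KO livers on HFD. KO livers again lay above all others, and KO minus HET was 1.84 ± 0.25 on chow (adjusted p = 0.00183) and 1.84 ± 0.25 on HFD (adjusted p = 0.000822). The highest KO livers were H2 on chow and C2 on HFD. Ccna2, the cyclin of S phase and early mitosis (Entrez 12428), read 4.30 and 3.44 in WT, 3.29, 3.43 and 3.97 in HET and 4.40, 5.03 and 5.37 in KO livers on chow, and 4.38, 4.09 and 3.65 in HET and 5.51, 5.16 and 5.19 in KO livers on HFD. Here the WT and HET livers were spread from 3.29 to 4.38 and the lowest KO liver was just above them, and the change was 1.37 ± 0.29 on chow (adjusted p = 0.0286) and 1.25 ± 0.29 on HFD (adjusted p = 0.0191). Cdk1, the kinase itself, changed by 1.01 ± 0.19 on chow (adjusted p = 0.0153) and 1.32 ± 0.19 on HFD (adjusted p = 0.00117). Its HET livers read 2.84 ± 0.17 on chow and 2.21 ± 0.26 on HFD (SD, n = 3 each), a diet difference that was not called (adjusted p = 0.248). Ube2c, an E2 enzyme of the anaphase-promoting complex, changed by 0.77 ± 0.12 and Cdca3 by 0.83 ± 0.17 over both diets.

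Of the 7 kinases and passenger complex members, 5 were called higher over both diets (Plk1, Aurka, Aurkb, Melk and Birc5). Plk1, Polo-like kinase, which acts from centrosome maturation to cytokinesis (Entrez 18817), read 2.90 and 2.52 in WT, 2.93, 3.33 and 2.80 in HET and 3.91, 5.0 and 5.13 in KO livers on chow, and 2.79, 2.27 and 2.52 in HET and 4.67, 5.12 and 4.24 in KO livers on HFD. All KO livers were above all others, with H1 the lowest of them, and the change was 1.66 ± 0.30 on chow (adjusted p = 0.0137) and 2.15 ± 0.30 on HFD (adjusted p = 0.00108). Aurka, the spindle pole Aurora kinase, rose on either diet (0.90 ± 0.18, adjusted p = 0.0223, and 1.18 ± 0.18, adjusted p = 0.00177). Aurkb, the catalytic member of the chromosomal passenger complex, was called on HFD (1.12 ± 0.22, adjusted p = 0.00845) and not on chow (0.89 ± 0.22, adjusted p = 0.0679). Of its partners in that complex, Cdca8 had means below the array median in every group and Birc5 in all groups but the KO livers on chow. Birc5, which encodes survivin, had group means of 1.54 ± 0.19 to 2.53 ± 0.65 and changed by 0.66 ± 0.17 over both diets (adjusted p = 0.0312). That call was kept in 5 of 14 fits that left out 1 array, with changes from 0.53 to 0.84. Cdca8, which encodes borealin, had group means of 1.67 ± 0.10 to 1.90 ± 0.08 and was not called (0.22 ± 0.08, adjusted p = 0.102). Pbk had the largest standard error of the members, with KO livers on chow at 2.07, 4.24 and 4.16, and its change of 1.19 ± 0.37 was not called (adjusted p = 0.0663).

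Kinetochore and checkpoint genes were called in 7 of 8 measured members over both diets (Ndc80, Nuf2, Cenpe, Cenpf, Mad2l1, Ttk and Bub1). Ndc80 (Entrez 67052), a microtubule-binding subunit of the outer kinetochore, read 2.41 and 1.82 in WT, 1.86, 2.07 and 2.09 in HET and 4.12, 3.60 and 4.43 in KO livers on chow, and 1.69, 2.13 and 2.21 in HET and 4.11, 4.60 and 3.95 in KO livers on HFD. Its change over both diets, 2.13 ± 0.17, ranked first among the members, although its WT and HET means lay below the array median, which leaves the size uncertain, and on HFD Ect2, Ccnb2 and Prc1 changed by more. Between the highest WT or HET liver and the lowest KO liver there was a gap of more than 1 on the log2 scale, and the change was 2.04 ± 0.23 on chow (adjusted p = 0.000474) and 2.21 ± 0.23 on HFD (adjusted p = 0.00016). Its binding partner Nuf2 (Entrez 66977) read 3.20 and 2.46 in WT, 3.17, 3.16 and 2.95 in HET and 3.73, 4.49 and 5.43 in KO livers on chow, and 2.86, 2.70 and 3.04 in HET and 4.88, 4.50 and 4.91 in KO livers on HFD. Nuf2 rose by 1.45 ± 0.33 on chow (adjusted p = 0.0396) and 1.89 ± 0.33 on HFD (adjusted p = 0.00366), again with every KO liver above the rest. The chow call was kept in 4 of 14 fits that left out 1 array, with changes from 1.01 to 1.87. Changes of the checkpoint kinases were smaller. Ttk changed by 0.82 ± 0.19 (adjusted p = 0.0151), and Bub1 by 0.51 ± 0.14 (adjusted p = 0.0423), a call kept in 3 of 14 fits that left out 1 array, with adjusted p-values up to 0.0952. Bub1b, which encodes BUBR1, changed by 0.48 ± 0.15 without being called (adjusted p = 0.0664). Mad2l1, the checkpoint protein MAD2, had means of 4.73 ± 0.15 (HET on chow) to 5.87 ± 0.17 (KO on HFD, SD, n = 3 each) and passed on HFD (1.02 ± 0.19, adjusted p = 0.00566) and not on chow (0.77 ± 0.19, adjusted p = 0.0609). The motor Cenpe and the scaffold Cenpf likewise passed on HFD alone (1.45 ± 0.30 and 1.09 ± 0.26), while their chow changes were 0.79 ± 0.30 and 0.89 ± 0.26, and the difference between diets was not called for any of these genes.

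All 6 spindle motors and microtubule-binding proteins were called higher over both diets (Tpx2, Hmmr, Nusap1, Kif2c, Kif11 and Tacc3). Tpx2, which activates Aurora A on spindle microtubules (Entrez 72119), read 2.74 and 2.58 in WT, 2.97, 3.01 and 2.65 in HET and 3.83, 3.92 and 4.28 in KO livers on chow, and 2.63, 3.05 and 2.96 in HET and 4.83, 4.92 and 4.12 in KO livers on HFD. KO livers lay above all others, and KO minus HET was 1.13 ± 0.21 on chow (adjusted p = 0.0133) and 1.74 ± 0.21 on HFD (adjusted p = 0.000312). Nusap1, a microtubule-bundling protein (Entrez 108907), read 2.05 and 2.12 in WT, 2.00, 2.10 and 2.27 in HET and 3.13, 3.85 and 3.68 in KO livers on chow, and 2.09, 1.83 and 2.05 in HET and 3.15, 3.14 and 3.09 in KO livers on HFD. WT and HET livers fell in a band from 1.83 to 2.27 and no KO liver was under 3.09, and the changes were 1.43 ± 0.16 (adjusted p = 0.000376) and 1.14 ± 0.16 (adjusted p = 0.00101). Hmmr, a spindle assembly factor (Entrez 15366), read 2.01 and 1.67 in WT, 1.97, 1.73 and 1.75 in HET and 2.60, 3.01 and 3.87 in KO livers on chow, and 1.72, 1.81 and 1.51 in HET and 3.12, 3.01 and 2.83 in KO livers on HFD. Its order was the same, with KO above the rest and changes of 1.34 ± 0.24 (adjusted p = 0.0132) and 1.31 ± 0.24 (adjusted p = 0.00594). Kif2c, a kinesin that takes microtubules apart (Entrez 73804), read 2.64 and 2.09 in WT, 1.85, 1.57 and 1.80 in HET and 2.40, 2.97 and 4.03 in KO livers on chow, and 2.06, 1.70 and 1.85 in HET and 3.00, 3.24 and 2.85 in KO livers on HFD. WT liver G1 overlapped the KO range here, and the change against HET passed on chow (1.39 ± 0.31, adjusted p = 0.0369) and HFD (1.16 ± 0.31, adjusted p = 0.0365). Kif11, the motor that pushes spindle poles apart, changed by 0.89 ± 0.18 over both diets (adjusted p = 0.00827), and Tacc3, which binds spindle microtubules, changed by 1.08 ± 0.23 on HFD (adjusted p = 0.0131) and by 0.30 ± 0.23 on chow (adjusted p = 0.648).

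Midzone and cytokinesis genes held some of the largest changes, and 6 of 7 were called higher over both diets (Prc1, Ect2, Kif20a, Anln, Racgap1 and Kif4). Prc1, which crosslinks the antiparallel microtubules of the midzone (Entrez 233406), read 2.85 and 2.81 in WT, 3.36, 2.81 and 2.86 in HET and 4.29, 4.97 and 5.24 in KO livers on chow, and 3.15, 3.13 and 2.84 in HET and 5.25, 5.09 and 5.47 in KO livers on HFD. No WT or HET liver passed 3.36 and no KO liver was under 4.29, and the changes were 1.82 ± 0.22 (adjusted p = 0.000689) on chow and 2.23 ± 0.22 (adjusted p = 9.76e-05) on HFD. Kif20a, a midzone kinesin (Entrez 19348), read 3.03 and 2.82 in WT, 3.70, 3.05 and 2.94 in HET and 4.09, 4.71 and 5.41 in KO livers on chow, and 2.81, 2.91 and 2.68 in HET and 4.78, 4.56 and 4.79 in KO livers on HFD. KO livers again lay apart from all others, and KO minus HET was 1.5 ± 0.27 on chow (adjusted p = 0.0127) and 1.90 ± 0.27 on HFD (adjusted p = 0.00113). Anln, the anillin scaffold of the contractile ring (Entrez 68743), read 2.73 and 2.84 in WT, 2.90, 2.88 and 3.09 in HET and 3.60, 3.61 and 4.62 in KO livers on chow, and 3.03, 2.81 and 2.44 in HET and 4.19, 4.19 and 4.31 in KO livers on HFD. Every KO liver lay above the others, and the change was 1.47 ± 0.23 on HFD (adjusted p = 0.00216). On chow it was 0.98 ± 0.23 at the edge of the threshold (adjusted p = 0.0496), a call that was lost in 12 of 14 fits that left out 1 array. Racgap1, the GTPase-activating subunit of centralspindlin, changed by 1.04 ± 0.23 (adjusted p = 0.0128). Kif23, its kinesin subunit, changed by 0.57 ± 0.22 and was not called (adjusted p = 0.143), and the difference between the pair was not tested. Kif4, the chromokinesin that works with PRC1, changed by 0.97 ± 0.24 (adjusted p = 0.0204).

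Of the 3 measured chromosome proteins, Top2a and Mki67 were called higher over both diets. Mki67, which encodes the proliferation marker Ki-67 (Entrez 17345), read 4.36 and 4.49 in WT, 4.65, 4.49 and 4.31 in HET and 4.93, 5.58 and 6.10 in KO livers on chow, and 4.30, 4.59 and 4.72 in HET and 6.08, 6.28 and 6.00 in KO livers on HFD. Every KO liver exceeded every other liver, H1 by the least, and the changes were 1.05 ± 0.23 on chow (adjusted p = 0.0338) and 1.58 ± 0.23 on HFD (adjusted p = 0.0012). Top2a, the topoisomerase that untangles replicated DNA (Entrez 21973), read 2.89 and 3.27 in WT, 4.05, 3.63 and 2.69 in HET and 3.75, 4.72 and 5.45 in KO livers on chow, and 3.69, 3.44 and 3.54 in HET and 5.21, 5.16 and 4.83 in KO livers on HFD. KO liver H1 lay inside the HET range, and the change passed on HFD (1.51 ± 0.38, adjusted p = 0.0283) and not on chow (1.18 ± 0.38, adjusted p = 0.165). Ncapd2, a condensin subunit, had means of 3.96 ± 0.28 and 4.62 ± 0.35 in HET and KO livers on chow and 4.18 ± 0.12 and 4.28 ± 0.26 on HFD, and was not called (0.38 ± 0.14, adjusted p = 0.129).

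**Figure D3:**
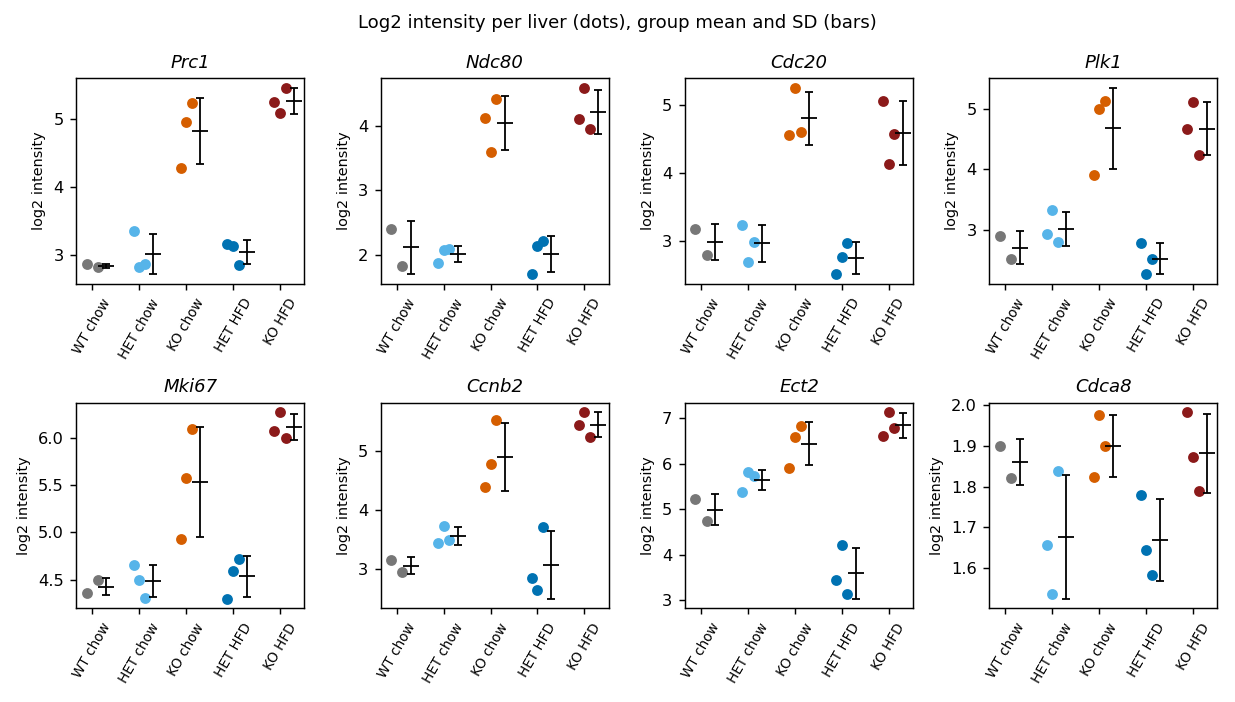
Log2 intensity of 8 members in each liver (dots, by group) with the group mean and SD (bars), each panel on its own axis. In Prc1, Ndc80, Cdc20, Plk1, Mki67, Ccnb2 and Ect2 all KO dots lie above the HET dots of the same diet, and in Cdca8 the whole axis spans under 0.5.

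**Figure D4:**
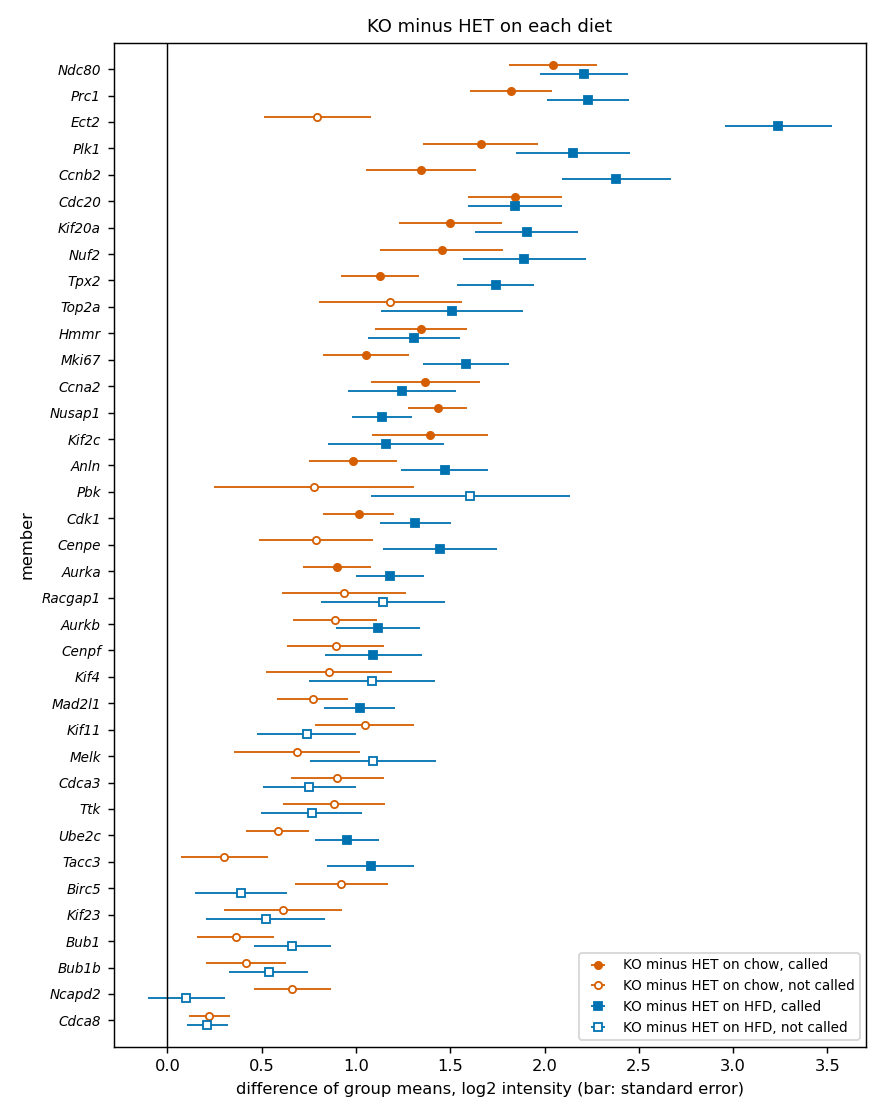
KO minus HET on chow (circles) and on HFD (squares) for each of the 37 members, as a difference of log2 group means with its standard error; filled symbols are called at an adjusted p under 0.05. All points are above 0, and Ect2 is the member whose chow and HFD bars lie farthest apart.

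Low levels limit the sizes given. With no detection call for a probe set used here, a mean below the array median over all probe sets (2.21 to 2.30) was taken as dim. The median over the tested genes was higher, at 2.90 to 2.99 in WT and HET livers. The median member lay under it in each of these livers but F1, so more members than those named below were low by that measure. This held for 10 members in WT livers (Nusap1, Bub1, Bub1b, Birc5, Ttk, Kif4, Melk, Cdca8, Ndc80 and Hmmr), for these and Kif2c in HET livers on chow, and for these, Kif2c, Cdk1 and Pbk in HET livers on HFD. In KO livers it held for Cdca8 on chow and for Birc5 and Cdca8 on HFD. A fold change of a dim member against HET or WT therefore has an uncertain base.

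Between diets, 1 member was called. HET mice on HFD were older than HET mice on chow, and KO mice on HFD younger than KO mice on chow, so diet and age cannot be told apart. In HET livers, HFD minus chow had a median of -0.13, and limma called 1 of 37 lower (Ect2) and none higher, beside 0.149% and 0.0496% of all genes. In KO livers the median was 0.17 and 0 members were called, beside 0.207% of genes higher and 0.108% lower. There, 5 of 37 had an unadjusted p under 0.05, against 2455 of 22180 genes, a share not far from that of all genes. They were Tpx2, Mki67 and Tacc3 with higher and Nusap1 and Birc5 with lower means on HFD. Without KO array H1 that median was -0.15. The interaction, KO minus HET on HFD less KO minus HET on chow, was called in 0 of 37 members, beside 0.0316% of genes higher and 0.00451% lower. An unadjusted p under 0.05 was found in 3 of 37 (Ect2, Ccnb2 and Tacc3), against 2187 of 22180 genes, so the members' share was no higher than that of all genes. The larger number of calls on HFD is thus not a tested difference between the diets.

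Ect2, the exchange factor that activates RhoA at the division plane (Entrez 13605), had the widest spread between groups of any member. It read 5.22 and 4.75 in WT, 5.38, 5.81 and 5.74 in HET and 5.91, 6.57 and 6.82 in KO livers on chow, and 3.45, 4.22 and 3.13 in HET and 6.60, 7.13 and 6.79 in KO livers on HFD. All HET livers on HFD lay below all other livers, and all KO livers of a diet lay above the HET livers of that diet. KO minus HET was 0.80 ± 0.29 on chow (adjusted p = 0.221) and 3.24 ± 0.29 on HFD (adjusted p = 3.9e-05), a 9.45-fold difference. HFD minus chow in HET livers was -2.04 ± 0.29 (adjusted p = 0.0106), while in KO livers it was 0.40 ± 0.29 (adjusted p = 0.667). The interaction of 2.45 ± 0.40 had an adjusted p of 0.0544, outside the threshold. It came inside with array weights (adjusted p = 0.0289), a trended variance prior (0.0263), genes under the median level removed (0.0388), or without KO array I1 (0.0328) or HET array B1 (0.0419). The fall in HET livers lost its call without HET array F2 or A2 and with the 2 groups fitted alone (adjusted p = 0.117). With an age term it was -2.23 and was not called (adjusted p = 0.181).

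The members also varied together within groups. The mean log2 intensity over the 37 members was 2.82 ± 0.10 (SD, n = 2) in WT, 2.90 ± 0.09 in HET and 3.92 ± 0.46 in KO livers on chow, and 2.73 ± 0.04 in HET and 4.02 ± 0.11 in KO livers on HFD (SD, n = 3 each). The KO livers on chow were the spread group, with means of 3.43 in H1, 3.98 in H2 and 4.35 in I1. H1 was the lowest of the 3 in 33 of 37 members and I1 the highest in 29, so these livers differed in the level of the whole group. Nevertheless H1 lay above all 8 WT and HET livers in 26 members, against 33 in H2 and 35 in I1, and 32 to 33 in the KO livers on HFD. The same count per liver was not made over all genes, so these numbers have no share of all genes beside them. Correlations of each member's deviations from its group means with the mean deviation of the other members had a median of 0.68 over the 14 arrays, from -0.30 (Kif4) to 0.93 (Melk). Kif2c (0.91), Hmmr (0.90) and Cdca3 (0.89) had high values and Bub1 (-0.16), Cdc20 (0.12) and Ndc80 (0.21) low ones, although Cdc20 and Ndc80 were among the largest KO changes. A value above 0.5 was found in 26 members (70.3%) and in 6.55% of the other genes. These correlations share the same arrays and lean on the spread between H1, H2 and I1. They were taken on values that were not centred. The median over all tested genes ran in the same order, at 3.01 in H1, 3.06 in H2 and 3.14 in I1, so the order of these livers is not particular to the members.

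Genes around the members moved less evenly. These lists were written down with earlier results of these data known, and their counts are descriptions. Of all genes, 6.52% were called higher and 2.9% lower over both diets. The shares were 1.44% and 0.478% on chow and 5.5% and 2.06% on HFD. Of 62 other mitotic genes measured, 22 were called higher over both diets and none lower, with a median change of 0.41, and the smallest p-values belonged to Ckap2 (1.32 ± 0.13), Arhgap11a (1.73 ± 0.21), Shcbp1 (1.46 ± 0.20) and Knstrn (1.09 ± 0.16). Of 28 genes of G1 and S phase, 12 were called higher and 2 lower, with a median of 0.24. The replication helicase genes Mcm2 (1.02 ± 0.13), Mcm5 (1.32 ± 0.20) and Mcm6 (1.15 ± 0.18) rose, while Mcm10 fell by 1.12 (± 0.15). On chow alone 0 genes of this list were called higher and 1, Mcm10, was called lower, against 10 higher and 2 lower on HFD. Of 19 regulators of mitotic transcription, 3 were called higher and 1 lower over both diets, with a median of 0.05. On chow alone 0 of them were called higher and 0 lower, against 4 higher and 0 lower on HFD. Averaged over the diets, Rbl1, which encodes the pocket protein p107 (1.08 ± 0.16), Foxm1 (0.72 ± 0.11) and E2f1 (0.52 ± 0.11) rose. Lin52, of the MuvB core shared by DREAM and MYB-MuvB, fell by 0.51 (± 0.14). E2f1 means were 4.34 in HET and 4.58 in KO livers on chow, and 3.91 in HET and 4.71 in KO livers on HFD. Foxm1 means were 1.75 in WT, 1.86 in HET and 2.24 in KO livers on chow, and 1.91 in HET and 2.97 in KO livers on HFD, so in WT and HET livers it was below the array median. In KO livers on chow its mean lay within the range of the array medians, 2.22 to 2.26. H1 read 1.87, below its array median, while H2 at 2.29 and I1 at 2.56 lay above theirs.

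Of 13 measured cell cycle inhibitors and ploidy-related genes, 4 were called higher over both diets (30.8%) and none lower, beside 6.52% and 2.9% of all genes, with a median of 0.32. Cdkn1a, which encodes the CDK inhibitor p21, read 5.02 and 4.66 in WT, 7.07, 7.06 and 4.54 in HET and 7.28, 7.28 and 9.44 in KO livers on chow, and 5.0, 5.60 and 5.0 in HET and 8.98, 8.92 and 9.47 in KO livers on HFD. HET arrays F1 and F2 on chow came close to the lower KO livers, and the change was 1.78 ± 0.64 on chow (adjusted p = 0.226) and 3.92 ± 0.64 on HFD (adjusted p = 0.00274). The other 3 called were Cdkn2c, which encodes p18 (0.79 ± 0.13), and the p53 targets Ccng1 (0.50 ± 0.12) and Mdm2 (0.32 ± 0.09), of which Mdm2 encodes a ubiquitin ligase that restrains p53. The CDK inhibitor genes Cdkn1b, Cdkn1c, Cdkn2a, Cdkn2b and Cdkn2d were not called on either diet or over both. Over the 37 members, F1 and F2 had means of 3.00 and 2.86, below the lowest KO liver at 3.43.

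**Figure D5:**
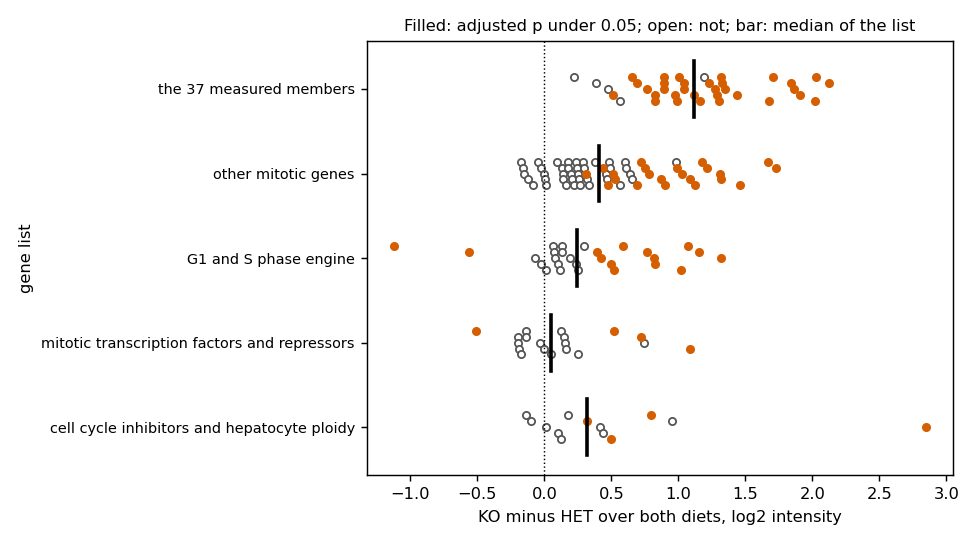
KO minus HET over both diets for each gene of the members and of 4 related lists, as a difference of log2 means; filled points have an adjusted p under 0.05 and the bar is the median of the list. The members' median of 1.12 lies to the right of the others, and Cdkn1a is the single point near 2.85.

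Markers of other cell types moved with genotype in part. Of all genes, 1.44% were called higher and 0.478% lower on chow, and 5.5% and 2.06% on HFD, and most lists here are short. Of 16 macrophage and monocyte markers, 3 were called higher and 1 lower on chow and 5 higher and 1 lower on HFD, and the mean level of the list was 5.45 to 6.18 in HET and 6.06 to 6.66 in KO livers on chow, and 5.67 to 6.23 and 6.69 to 6.99 on HFD. Of 12 stellate cell and fibroblast markers, 1 was called higher and 1 lower on chow and 4 higher and 1 lower on HFD, with list means of 5.64 to 6.25 in HET and 6.09 to 6.40 in KO livers on chow, and 5.67 to 5.96 and 6.40 to 6.77 on HFD. Of 15 T, B and NK cell markers 0 were called on chow and 3 were called higher on HFD, with list means of 2.94 to 3.81 in HET and 3.17 to 3.31 in KO livers on chow, and 3.00 to 3.32 and 3.68 to 3.89 on HFD. Cd3d and Klrb1c stayed below the array median in all livers. Of 8 hepatocyte markers 0 were called on chow and 3 were called lower on HFD. Their list means were 11.95 to 11.97 in HET and 11.87 to 11.91 in KO livers on chow. On HFD they were 11.92 to 11.98 in HET and 11.62 to 11.74 in KO livers. The list mean thus lay lower in KO than in HET livers on either diet. On chow, however, 4 of the 8 markers had a higher mean in KO livers, with a median change of -0.01, against 0 of 8 on HFD. Of 6 cholangiocyte markers 0 were called on chow and 1 was called higher on HFD, with list means of 3.09 to 3.42 in HET and 3.46 to 4.07 in KO livers on chow, and 3.09 to 3.17 and 3.36 to 4.03 on HFD. Of 8 endothelial markers 0 were called on chow and 1 was called lower on HFD. Their list means were 7.88 to 8.04 in HET and 8.01 to 8.05 in KO livers on chow. On HFD they were 7.98 to 8.13 in HET and 8.15 to 8.27 in KO livers, so the list mean lay higher in KO livers. There, 5 of the 8 markers had a higher mean in KO livers. None of 8 neutrophil or 4 measured erythroid markers was called on either diet, and the neutrophil genes S100a8, S100a9, Ly6g, Elane and Mpo stayed below the array median in all livers. The part of macrophages, stellate cells, lymphocytes, cholangiocytes, endothelial cells and hepatocytes in the members' rise was not tested.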

How the data were processed

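Liver RNA was hybridized to Affymetrix whole-transcript arrays, 1 liver per array. The authors deposited log2 intensities, 1 per probe set, summarized with RMA per the submitters' processing notes, which also name limma; versions and any batch step are not given there. RMA normalizes quantiles between arrays, so a shift of all genes cannot be seen. Of 41345 probe sets, 23521 carried 1 gene symbol, 1814 several and 16010 none. Per gene the brightest over the 14 arrays was kept, leaving 22180 genes with no filter on level, and 0 columns were left unused. limma 3.58.1 in R 4.3.3 fitted a mean for each group over the 14 arrays (9 residual degrees of freedom, 3.83 from the prior) and tested 8 contrasts. The fit was tested on simulated data with a fixed seed. With 2 or 3 arrays per group, their number limits the precision.

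The members, the related lists, the motifs and the contrasts were chosen with earlier results of these data known, so their counts are descriptions beside those of all genes. Named in full were Lmna and the 16 members with the largest change over both diets among those called, and up to 4 genes per related list by smallest p-value. Cell type markers were read as lists. Promoters came from the RefSeq table for GRCm38.p6. Alternatives were centred arrays, age as a linear term, array weights, a filter on dim genes, a variance prior that was trended and robust, averaging of probe sets within a gene, fits limited to the groups compared, a random block for arrays whose names share a letter, and leaving out each array in turn.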

Additional observations from a re-analysis of the deposited data

How the results depend on the processing

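The number of members called over both diets was 21 of the 23 members left after the filter on dim genes, 28 to 34 when 1 array was left out, and 0 with an age term, which also took the median change to 0.59 and turned the sign of Top2a (-0.58), Bub1 (-0.46), Cdca3 (-0.20) and Tacc3 (-0.43). For KO minus HET on HFD the number was 0 with an age term and 20 to 29 without 1 array, and the median was 1.45 after the filter. For KO minus HET on chow the number was 6 with only the groups compared, 0 with an age term (median 0.37) and 6 to 26 without 1 array (median 0.77 to 1.26), and the age term turned the sign of Cdk1 (-0.60), Plk1 (-0.48), Kif20a (-0.36), Tpx2 (-0.13) and Nuf2 (-0.94). For KO minus WT it was 4 with only the groups compared, 0 with an age term (median 0.47) and 3 to 25 without 1 array (median 0.83 to 1.33), and the age term turned Cdk1 (-0.55), Plk1 (-0.13), Kif20a (-0.023) and Nuf2 (-0.64). The Ect2 call for HFD minus chow in HET became 0 with only the groups compared and with an age term, and was 0 to 1 without 1 array. For HFD minus chow in KO the median ran from -0.15 to 0.34 without 1 array. The interaction had 1 call (Ect2) with array weights, a trended prior or the filter on dim genes, 0 to 1 without 1 array, and a median of 0.61 with an age term. That filter keeps genes whose mean over all 14 arrays, KO livers included, is above the median gene, so members high in KO livers pass it more readily and its counts and median are no check on low signal. Except for the age term, no alternative reversed a called member. The age slope comes from small age differences within WT and HET groups, and the cause of these changes was not tested. Array weights, the variance prior, centring, the mean of probe sets and the letter block left every other count of members within 1.5 times. No paired analysis was possible because the array names give no number that ties livers across groups; replicate numbers only follow the order of deposition. Signal over background limits the members that were dim in WT and HET livers.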
